A study of Mus musculus with 12 samples.

Results

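The proteasome genes measured in this series were taken as all probes whose gene symbol starts with Psma, Psmb, Psmc, Psmd, Psme, Psmf or Psmg. The rule gave 56 of the 25697 probes of the array and 41 gene symbols. Of these genes 5 form the immune set, Psmb8, Psmb9, Psmb10, Psme1 and Psme2, and 36 are the others. Among the others 34 encode subunits, other activators or assembly chaperones, and the remaining pair, Psmc3ip and Psme3ip1, is named only for binding a proteasome protein. All 41 genes passed the detection filter, as did 55 of the 56 probes. The probe left out was a second probe of Psmd2, detected on 1 array.

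RNA was profiled on 12 single-colour Illumina bead arrays from B16 tumors, a pigmented mouse melanoma, grown under the skin of C57BL6 mice from 25000 inoculated cells and taken at 100 to 400 mm3. Each replicate pooled the tumors of 3 mice, and the digested cells were sorted on tdTomato fluorescence into a positive fraction, labelled tumor, and a negative one, labelled microenvironment. The groups were F4 tumor cells (n = 4, pools A to D), F0 tumor cells (n = 2, pools B2 and B3), F4 microenvironment (n = 4) and F0 microenvironment (n = 2), with both fractions of a pool coming from the same tumors. F4 samples are labelled as having acquired resistance to earlier checkpoint inhibitor therapy and as being under treatment, whereas the treatment label of F0 samples says that they had none. The protocol text states instead that mice inoculated with either kind of cell were given the same 3 injections of checkpoint inhibitors together with Fvax, B16 cells that express Flt3 ligand. Treatment of the F0 mice is therefore not settled by the labels, and a difference between F4 and F0 may hold a difference in treatment as well as in the cells. Which inhibitors were given and how F4 cells were derived is not given in the sources used here.

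Tumor arrays had 8995 to 10308 detected probes and a mean raw signal of 250.5 to 519, against 6808 to 9387 detected probes and a mean raw signal of 156 to 259 on microenvironment arrays. Each fraction had a chip of its own, and F0 samples took the first positions on both chips, so that the chip cannot be told apart from the fraction, nor the position from F0 or F4. The p-values of the main fit, a mean per group, measure the spread between arrays within groups. That fit has no term for the pool, so it does not pair both fractions of a pool, and an alternative with the pool as a block does. Of 15 melanocyte markers 11 were measured, with a summed signal of 55280 to 75250 in F4 tumor cells, 68932 to 68941 in F0 tumor cells, 18264 to 70122 in the F4 microenvironment and 31016 to 68317 in the F0 microenvironment. Of 10 leukocyte markers 9 were measured, with a summed signal of 3481 to 25614 in F4 tumor cells, 2957 to 6505 in F0 tumor cells, 23352 to 42862 in the F4 microenvironment and 19650 to 42003 in the F0 microenvironment. No measured melanocyte marker was undetected throughout a tumor group, 1 was undetected throughout each microenvironment group, and 2 leukocyte markers were undetected throughout F0 tumor cells. The arrays of F4 tumor pool A, F4 microenvironment pool D and F0 microenvironment pool B3 lay towards the other fraction on these markers. Their mean leukocyte signals were 10.21 for F4 tumor pool A, against 6.41 to 7.93 on pools B, C and D, and their mean melanocyte signals 10.49 and 10.44 for the microenvironment arrays D and B3, against 8.08 to 9.29 on the other microenvironment arrays. In such sorted bulk samples fewer cells of a type and less RNA per cell cannot be told apart.

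The proteasome degrades proteins tagged with ubiquitin. Its 20S core is a barrel of alpha and beta subunits, of which Psmb5, Psmb6 and Psmb7 carry the constitutive catalytic sites, and the 19S cap of Psmc ATPases and Psmd subunits recognises and unfolds substrates. Interferon gamma induces Psmb8, Psmb9 and Psmb10, which take the places of Psmb5, Psmb6 and Psmb7 in newly built cores, the immunoproteasome, and Psme1 with Psme2, the alpha and beta subunits of the PA28 activator, and this form is best known for making peptides that MHC class I molecules present to T cells.

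The stretches before the start sites of the immune subunits Psmb8 and Psmb9 and of their constitutive counterparts Psmb5 and Psmb6 are shown because these genes moved apart across the arrays. They are the 250 bases before the annotated start, 5′ to 3′ in the direction of the gene, from RefSeq on GRCm38.p6, at chr17:34197945-34198194 on the + strand for Psmb8, chr17:34187331-34187580 on the - strand for Psmb9, chr14:54617996-54618245 on the - strand for Psmb5 and chr11:70525107-70525356 on the + strand for Psmb6. Capitals mark a match, on either strand, to the interferon gamma activated site TTCNNNGAA in Psmb8 and to the antioxidant response element core TGACNNNGC in Psmb5 and Psmb6.
Psmb8: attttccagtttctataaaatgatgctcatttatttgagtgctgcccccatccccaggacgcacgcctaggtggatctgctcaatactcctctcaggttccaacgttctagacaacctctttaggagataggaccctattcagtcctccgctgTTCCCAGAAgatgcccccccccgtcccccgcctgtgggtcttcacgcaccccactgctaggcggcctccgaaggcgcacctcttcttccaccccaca
Psmb9: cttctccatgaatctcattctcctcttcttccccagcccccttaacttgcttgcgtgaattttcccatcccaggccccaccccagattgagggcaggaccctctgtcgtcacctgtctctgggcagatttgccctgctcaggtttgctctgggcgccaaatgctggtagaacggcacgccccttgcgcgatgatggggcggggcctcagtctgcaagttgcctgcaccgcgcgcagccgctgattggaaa
Psmb5: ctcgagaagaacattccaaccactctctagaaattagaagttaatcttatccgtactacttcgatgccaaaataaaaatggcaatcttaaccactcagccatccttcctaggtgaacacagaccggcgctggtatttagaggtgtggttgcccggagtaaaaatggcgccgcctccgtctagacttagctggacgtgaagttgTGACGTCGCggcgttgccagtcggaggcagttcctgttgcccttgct
Psmb6: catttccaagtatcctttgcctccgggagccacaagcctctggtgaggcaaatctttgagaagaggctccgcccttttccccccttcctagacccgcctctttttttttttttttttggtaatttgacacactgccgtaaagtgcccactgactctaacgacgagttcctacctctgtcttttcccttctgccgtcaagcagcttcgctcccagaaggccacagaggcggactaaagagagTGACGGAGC
Promoters were found for 35 of the 41 symbols, in 38 windows. The promoters of a single chromosome were left out of the search, for members and background alike, so that all promoters means those of the other chromosomes. TTCNNNGAA stood in 1 of 6 immune windows, that of Psmb8, 97 bases before the start, in 1 of 32 other windows and in 7.02% of 32851 promoters. TGACNNNGC stood in 0 of 6 immune windows, in 4 of 32 other windows and in 10.2% of all promoters, with matches 47 bases before the start of Psmb5 and 9 bases before that of Psmb6. The interferon stimulated response element, searched as GAAA, any 2 bases and GAAA, stood in 0 of 6 immune windows, in 3 of 32 other windows and in 2.98% of all promoters. The motifs were counted separately, each on both strands, and a missing match says only that the letters are not in this window.

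The inducible catalytic subunits varied more within groups than most of the proteasome, and the F0 pools lay farthest apart. Psmb8, the inducible chymotrypsin-like subunit, had log2 signals of 8.52, 7.90, 7.39 and 6.97 in F4 tumor cells, against 8.05 in pool B2 and 5.47 in pool B3 of F0 tumor cells. In the microenvironment Psmb8 had 9.00, 9.04, 8.73 and 8.23 in F4, against 8.92 in pool B2 and 7.32 in pool B3 of F0. In both fractions pool B3 was the lowest array and pool B2 lay inside the F4 range, so that the groups overlapped.

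Psmb9, the inducible counterpart of the caspase-like subunit Psmb6, had 10.12, 9.99, 9.32 and 9.14 in F4 tumor cells, against 10.06 in pool B2 and 6.58 in pool B3 of F0. Its microenvironment values were 10.35, 10.53, 10.33 and 9.82 in F4, against 10.53 and 8.98 in F0. Pool B3 was again the lowest array of each fraction. Psmb10, the inducible trypsin-like subunit, had 11.39, 10.72, 10.54 and 10.11 in F4 tumor cells, against 11.33 and 9.45 in F0 tumor cells. Its microenvironment values were 11.61, 11.71, 11.53 and 10.82 in F4, against 11.78 and 10.43 in F0. The same single pool was low for all 3 inducible catalytic subunits, in the tumor cells and in the microenvironment.

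The PA28 subunits followed to a smaller extent. Psme1 had 11.64, 11.56, 11.27 and 11.20 in F4 tumor cells, against 11.73 in pool B2 and 10.68 in pool B3 of F0. Its microenvironment values were 11.67, 11.79, 11.61 and 11.52 in F4, against 11.84 and 11.02 in F0. Psme2 had 8.34, 8.63, 8.37 and 8.35 in F4 tumor cells, against 8.43 and 8.10 in F0 tumor cells. Pool B3 was the lowest F0 value of both genes in each fraction, and Psme2 spanned less than 1 log2 unit over the 12 arrays.

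**Figure D1:**
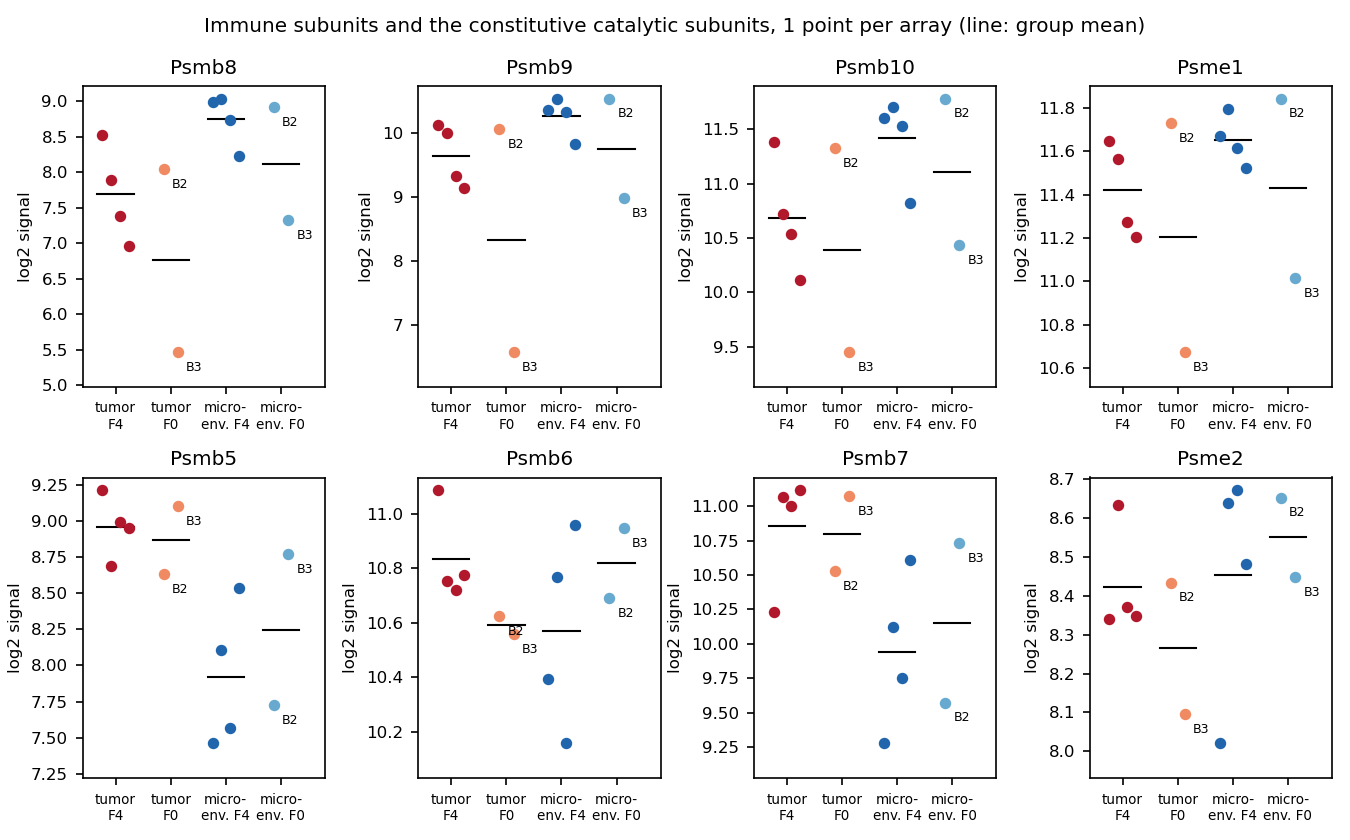
Log2 signal (vertical axis, 1 scale per gene) of the 5 immune subunits and of the constitutive catalytic subunits Psmb5, Psmb6 and Psmb7 on each array, by group, with a line at the group mean. Points of F0 carry their pool name: pool B3 is the lowest point for Psmb8 and Psmb9 in each fraction, at 5.47 and 6.58 in tumor cells, and is not low for Psmb5 or Psmb7.

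The distance between the F0 pools was measured as pool B3 minus pool B2 on the log2 scale. In tumor cells it was -3.48 for Psmb9, 11.1-fold lower in B3, -2.58 for Psmb8, 5.96-fold lower, and -1.88 for Psmb10, 3.67-fold lower. These sizes stood at percentiles 99.7, 99.1 and 98.1 of the absolute differences of all 7894 genes between the same arrays. Psme1 was 2.08-fold lower in B3, and Psme2 differed by -0.34. The 36 other genes lay between -0.39 and 0.58, with 10 of them below 0, and the median absolute difference was 1.88 for the immune set, 0.21 for the others and 0.25 for all genes.

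In the microenvironment the values were smaller. There the differences between B3 and B2 were -1.60 for Psmb8, -1.56 for Psmb9, -1.35 for Psmb10, -0.83 for Psme1 and -0.20 for Psme2, while the others ran from -0.38 to 1.78 and 8 of 36 were below 0. Each F0 group has only these 2 arrays, so the comparison of B3 with B2 is of single pools and carries no test.

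**Figure D2:**
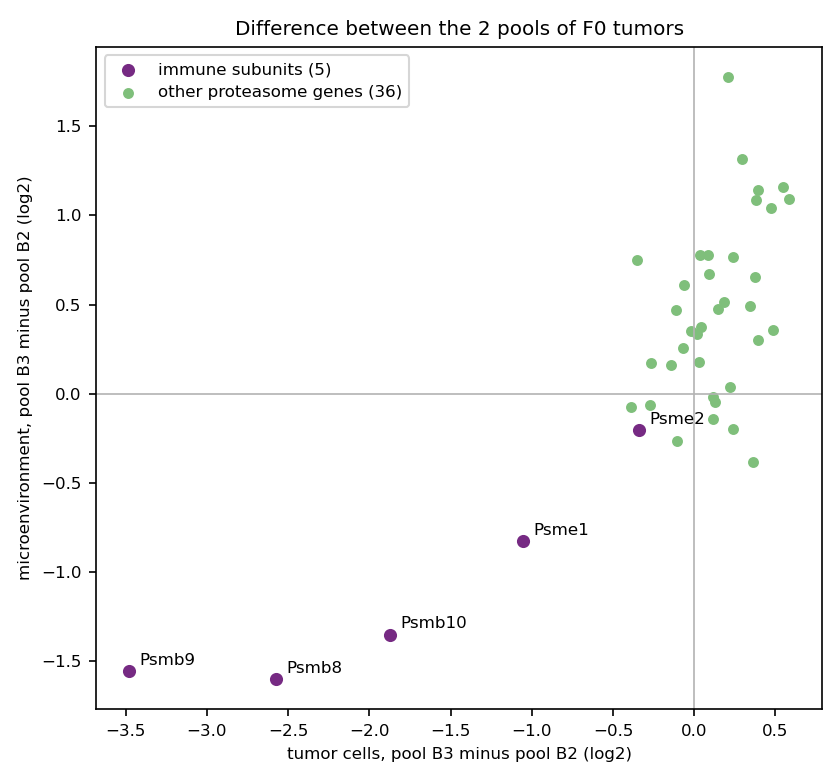
Difference between the F0 pools, B3 minus B2 in log2 units, in tumor cells (horizontal) and in the microenvironment (vertical), 1 point per proteasome gene. The immune subunits run from Psme2 at -0.34 and -0.20 to Psmb9 at -3.48 and -1.56, while the 36 other genes lie between -0.39 and 0.58 on the horizontal axis.

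Other gene groups moved with pool B3. The list of interferon gamma genes includes the receptor chains Ifngr1 and Ifngr2 and the kinase Jak2. The mean log2 signal of its 23 measured genes was 6.91 on the B3 and 8.68 on the B2 tumor array. On the microenvironment arrays that mean was 8.33 on B3 and 9.74 on B2. The mean log2 signal of 12 class I presentation genes without proteasome members was 7.35 on B3 and 8.55 on B2 in tumor cells. In the microenvironment it was 8.08 on B3 and 9.57 on B2. Leukocyte markers averaged 6.52 on B3 and 7.88 on B2 in tumor cells, and 9.98 on B3 and 11.02 on B2 in the microenvironment. There the leukocyte types went both ways. T cell markers averaged 7.86 on B3 and 11.17 on B2, and NK cell markers 6.97 and 10.68. Macrophage markers averaged 9.17 on B3 and 9.02 on B2, and neutrophil markers 9.73 and 9.18. Melanocyte markers averaged 10.73 on B3 and 10.55 on B2 in tumor cells, and 10.44 on B3 and 8.90 on B2 in the microenvironment. The part of these groups in the low immune subunits of B3 was not tested.

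Between F4 and F0 tumor cells no proteasome gene passed the test. With limma, 0 of 41 genes were higher and 0 lower at an adjusted p under 0.05, where 0.0127% of all 7894 genes were higher and 0.076% lower, and 0 of 41 had an unadjusted p under 0.05. All 5 immune subunits had a positive difference, with a median of 0.30, as did 24 of the 36 others, with a median of 0.08, beside a median of -0.02 over all genes. Psmb9 averaged 9.64 ± 0.49 (SD, n = 4) in F4 and 8.32 ± 2.46 (n = 2) in F0, a difference of 1.32 with a standard error of 0.76. Psmb8 averaged 7.69 ± 0.67 in F4 and 6.76 ± 1.82 in F0, a difference of 0.93 with a standard error of 0.67. The differences of Psmb10, Psme1 and Psme2 were 0.30, 0.22 and 0.16, and the adjusted p was 1.0 for each of the 5. Second probes of Psmb10 and Psme1 gave 0.25 and 0.04.

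These positive differences rested on pool B3. Without the B3 tumor array the differences became -0.35 for Psmb8, -0.42 for Psmb9, -0.64 for Psmb10, -0.31 for Psme1 and -0.01 for Psme2. Without the B2 tumor array they became 2.19, 3.04, 1.23, 0.75 and 0.33 in the same order, with the smallest adjusted p, 0.422, for Psmb9. The median of the immune set minus that of the others was accordingly 0.22 with all arrays, -0.46 without B3 and 1.24 without B2. With median scaling over all probes, which moved the median of all genes to -0.26, the differences of Psme1 and Psme2 were -0.07 and -0.13, and 4 of the 36 others lay above 0. Between F4 and F0 tumor cells leukocyte markers were above 0 in 8 of 9, with a median of 0.93, and T cell markers in 9 of 9, with a median of 1.35. None of these markers passed the test, and their part in the immune differences was not tested.

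Among the other subunits the smallest p-values belonged to Psmd1, Psmd10 and Psmc1. Psmd1, the scaffold Rpn2 of the 19S cap, had 7.37, 7.36, 7.06 and 7.19 in F4 tumor cells, against 6.38 and 6.87 in F0, a difference of 0.62 (95% interval -0.44 to 1.68). Psmc1, the ATPase Rpt2, had 9.94, 10.18, 10.19 and 10.10 in F4, against 9.70 and 9.79 in F0, a difference of 0.35 (-0.44 to 1.15). Psmd10, the assembly chaperone gankyrin, differed by 0.24 (-0.23 to 0.71), and its F4 and F0 arrays overlapped.

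In 5 genes, Psmb6, Psmc1, Psmc3, Psmd1 and Psme4, all F4 tumor arrays lay above both F0 arrays, and in 1, Psma7, all lay below. Over all genes this was so of 5.43% above and 8.3% below. Psmb6 had 11.09, 10.75, 10.72 and 10.78 in F4 tumor cells, against 10.63 and 10.56 in F0, and Psmb7 overlapped with a range of 10.23 to 11.12 in F4, against 10.53 and 11.07 in F0. The constitutive catalytic subunits differed by 0.09 for Psmb5, 0.24 for Psmb6 and 0.05 for Psmb7. Across the 41 genes the 95% interval, which is not adjusted for the number of genes, had a median half-width of 0.66. For a gene with that half-width, a smaller difference was not detectable with 2 F0 arrays, and a call after adjustment needed a larger one. The limit differs between genes: the intervals of Psmb8 and Psmb9 were wider than that median, and that of Psmd10 was narrower.

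In the microenvironment no proteasome gene passed the test between F4 and F0 either, with 0 of 41 higher and 0 lower by limma, 0 with an unadjusted p under 0.05, and 0% of all genes called in either direction. The immune subunits were above 0 in 4 of 5, with a median of 0.31: Psmb8 differed by 0.63, Psmb9 by 0.50, Psmb10 by 0.31, Psme1 by 0.22 and Psme2 by -0.10. Second probes gave less, 0.07 for Psmb10 and 0.13 for Psme1, so that the median rests on the probe chosen. Without the B3 microenvironment array all 5 immune subunits were below 0, between -0.36 for Psmb10 and -0.17 for Psmb8. The other genes leaned the opposite way, with 4 of 36 above 0 and a median of -0.13, beside -0.03 for all genes, though without pool B3 20 of 36 lay above 0 and their median was 0.05, and with median scaling over all probes 25 of 36 did. No member had F4 arrays that all lay on one side of the F0 arrays, where 2.37% of all genes lay wholly above and 2.9% wholly below.

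The smallest p-values in the microenvironment belonged to Psmd9, Psmb1, Psma3, Psmd14 and Psmd12. Psmd9, an assembly chaperone, was not above background on any F4 microenvironment array and was on 1 of 2 in F0, so that no fold is given. Psmb1, the core subunit beta6, had 8.17, 9.35, 10.26 and 8.02 in F4, against 9.85 and 9.47 in F0, a difference of -0.71 (95% interval -1.89 to 0.47). Its spread among the F4 pools, an SD of 1.06, exceeded that difference. Psma3, Psmd14 (the deubiquitinase Rpn11) and Psmd12 differed by -0.25, -0.36 and -0.33.

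Whether the F4 difference itself depended on the fraction was tested as an interaction, the tumor difference minus the microenvironment difference. It passed for 0 of 41 members and 0% of all genes in either direction, and 0 members had an unadjusted p under 0.05. Psmd1 had the smallest p, with an interaction of 0.98 and a standard error of 0.68, followed by Psmd9, Psmb6, Psmd14 and Psmd2. Psmb6 and Psmd14 had interactions of 0.49 and 0.62. No size is given for Psmd9, not above background on any F4 microenvironment array, or for Psmd2, not above background on any microenvironment array, and their p-values are set against background. Psmb9 had an interaction of 0.82 with a standard error of 1.08 and Psmb8 of 0.31 with one of 0.95.

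**Figure D3:**
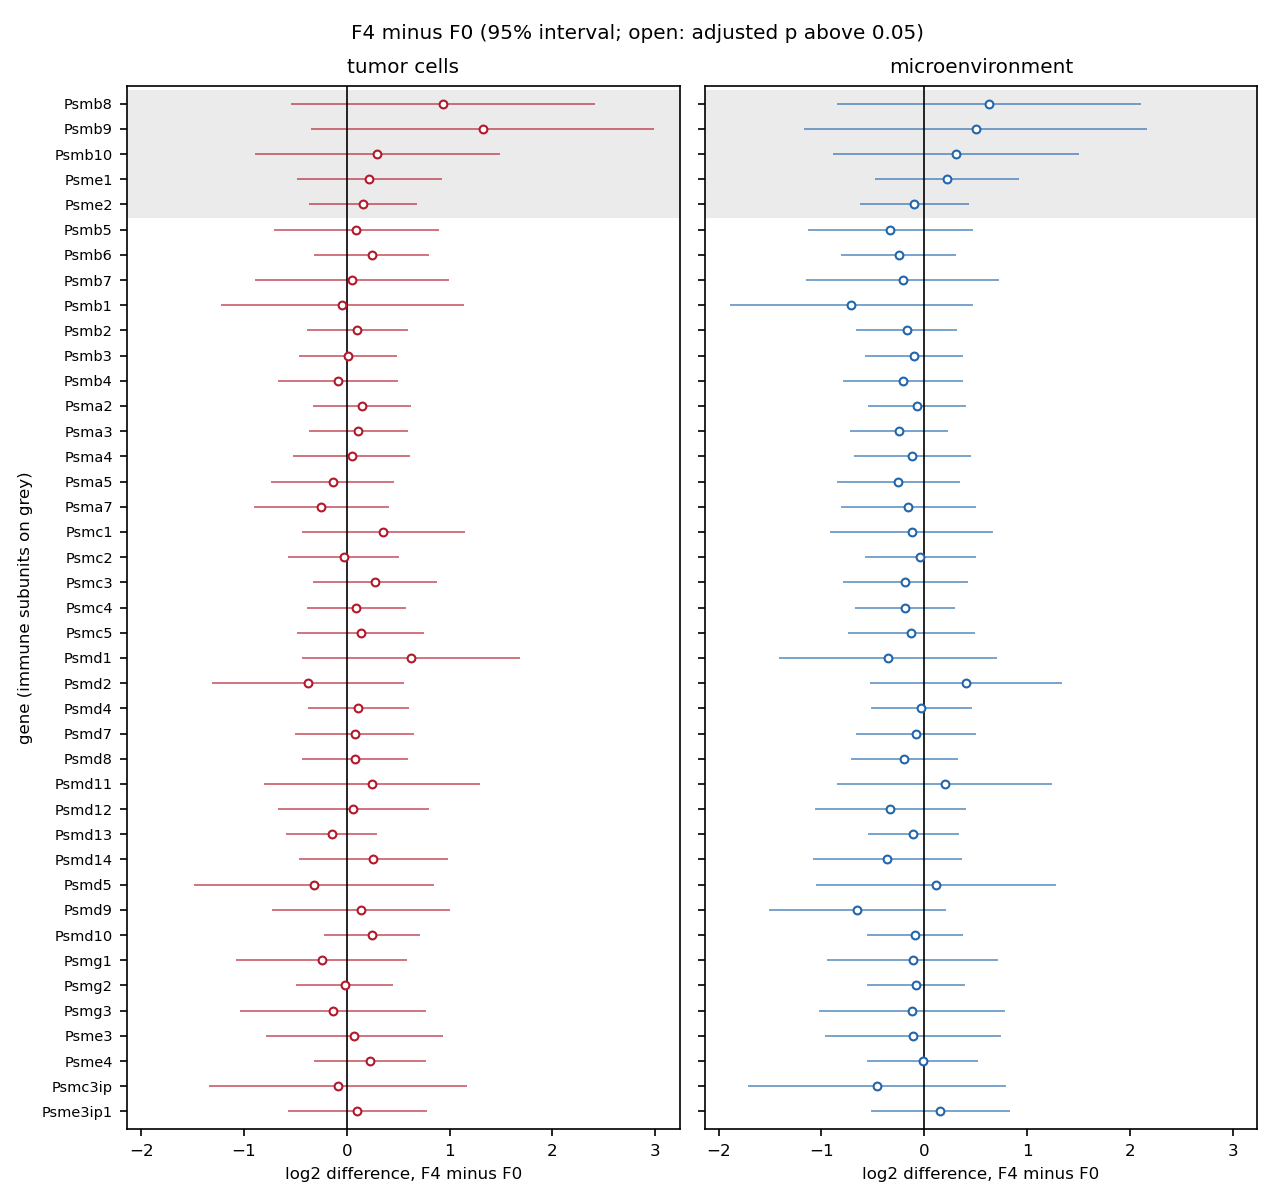
Log2 difference, F4 minus F0, of the 41 proteasome genes (rows, immune subunits on grey) in tumor cells (left) and in the microenvironment (right), with 95% intervals from limma. All points are open, since no adjusted p was under 0.05, and the widest intervals are those of Psmb8 and Psmb9, at 0.93 and 1.32 in tumor cells.

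Between the fractions of F4 tumors most ATPases of the cap and some other proteasome genes were higher in tumor cells. Most core and cap genes and the immune subunits did not pass the test in the main fit. With the pool as a block Psmb8 and Psmb10 passed as lower in tumor cells. Of the 36 other genes 10 rose and 0 fell, against a background of 13.3% of all genes higher and 11.2% lower. All 36 lay above 0, with a median of 0.51, beside a median of 0.20 and 59.8% above 0 over all genes. The immune subunits were 0 of 5 called, 5 of 5 below 0, with a median of -0.61.

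Psmb1 had the largest difference: 10.45, 11.12, 11.30 and 10.90 in F4 tumor cells, against 8.17, 9.35, 10.26 and 8.02 in the F4 microenvironment, which is 3.98-fold higher with an adjusted p of 0.0186. Psmb5, the constitutive chymotrypsin-like subunit, had 9.21, 8.68, 8.99 and 8.95 in tumor cells, against 7.46, 8.11, 7.57 and 8.53 in the microenvironment. All tumor values of both genes exceeded all microenvironment values of the same line. Psmb5 was 2.06-fold higher with an adjusted p of 0.0335.

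The ATPases of the cap rose together, 4 of 5. Psmc1 was 2.10-fold higher (adjusted p 0.0306), Psmc5 1.88-fold (0.0247), Psmc3 1.88-fold (0.0236) and Psmc4 1.47-fold (0.0452), and Psmc2 had a difference of 0.42 that did not pass (0.121). Psmc3, the subunit Rpt5, had 10.95, 10.94, 11.16 and 11.18 in tumor cells, against 9.80, 10.16, 9.94 and 10.70 in the microenvironment. A second probe of Psmc5 gave 0.90 with an adjusted p of 0.0459, close to the 0.91 of the first.

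Of the 9 other cap subunits 1 rose, Psmd1, 2.44-fold with an adjusted p of 0.0402. Psmd1 had 7.37, 7.36, 7.06 and 7.19 in tumor cells, against 5.22, 6.45, 5.09 and 7.08 in the microenvironment. It was detected on only 2 of the 4 microenvironment arrays of F4, and pool D of the microenvironment overlapped the tumor arrays. Psmd2, the cap scaffold Rpn1, was detected on 5 arrays in all and on none of the microenvironment, so that no fold is given. The remaining cap subunits lay between 0.08 for Psmd4, a ubiquitin receptor, and 0.78 for Psmd11.

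Psme4, the PA200 activator, was 1.54-fold higher in F4 tumor cells (adjusted p 0.0446). Its values were 10.45, 10.45, 10.75 and 10.66 in tumor cells, against 9.96, 9.82, 9.86 and 10.17 in the microenvironment, with no overlap. Psme3, the nuclear PA28 gamma, differed by 0.62 and did not pass. Psmd9 passed with an adjusted p of 0.0312, but was not above background on any F4 microenvironment array, and its second probe did not pass (0.0640). Psmc3ip, a recombination factor and no subunit, was 2.66-fold higher (0.0477). It was detected on only 2 of the 4 F4 microenvironment arrays, and microenvironment pool D, at 7.83, lay above tumor pool A, at 7.68. The chaperone Psmg1 missed the threshold at a difference of 0.91 (adjusted p 0.0517), and Psmg3, Psmb7 and Psmd8 had differences of 0.86, 0.91 and 0.50 that did not pass.

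None of the 5 alpha subunits passed the test. Psma2, Psma3, Psma4, Psma5 and Psma7 differed by 0.12, 0.20, 0.10, 0.32 and 0.48. The core beta subunits Psmb2, Psmb3 and Psmb4 differed by 0.41, 0.26 and 0.52 and did not pass. The called genes were thus 2 of 7 beta subunits, 4 of 5 ATPases, 1 of 9 other cap subunits, 1 of 6 assembly chaperones, 1 of 2 other activators and Psmc3ip.

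The immune subunits had negative differences that did not pass the test in the main fit. Psmb8 averaged 7.69 ± 0.67 (SD, n = 4) in F4 tumor cells and 8.75 ± 0.37 (n = 4) in the F4 microenvironment, a difference of -1.06 (95% interval -2.26 to 0.15, adjusted p 0.150). Psmb10 differed by -0.73 (-1.71 to 0.25), Psmb9 by -0.61 (-1.98 to 0.75), Psme1 by -0.23 and Psme2 by -0.03. A second probe of Psmb10 gave -0.63, and a second probe of Psme1 gave 0.03.

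With the pool as a block, which sets both fractions of the same tumors against each other, Psmb8 and Psmb10 fell in F4 tumor cells, with adjusted p of 0.0205 and 0.0388, and 11 other genes rose. With array weights Psmb8, at -1.47, and Psmb10, at -1.11, also passed, and without F4 tumor pool A, F4 microenvironment pool D and F0 microenvironment pool B3 only Psmb10 of the immune set did, at -1.14. With median scaling over all probes all 5 immune subunits lay above 0 and Psme1 and Psme2 rose, at 1.17 and 1.38, beside a median of 1.22 over all genes. Relative to the median of all genes the immune set stood at -0.81 with quantile normalization and at -0.39 with that scaling, and the others at 0.31 and 0.59. With median scaling over the kept probes, an alternative chosen after seeing the data, 1 of 5 immune subunits and 35 of 36 others lay above 0.

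In quantile-normalized values the immune set and the others mostly went opposite ways within pools. Psmb8 was lower in the tumor cells than in the microenvironment of all 6 pools, by 0.48, 1.14, 1.35 and 1.26 on the log2 scale in F4 pools A to D and by 0.88 and 1.85 in F0 pools B2 and B3. By the probe that stands for each gene, Psmb9, Psmb10 and Psme1 were likewise lower in 6 of 6 pools, and Psme2 in 5 of 6. Tumor cells were thus lower in all 6 pools for 4 of 5 immune subunits and 0 of 36 others, where 16.4% of all genes were, and higher in all 6 for 0 of 5 immune subunits and 20 of 36 others, where 28.7% of all genes were. In the 4 F4 pools alone 4 of 5 immune subunits were lower throughout (19.7% of all genes) and 26 of 36 others higher throughout (33.3%). The second probe of Psme1 had mean differences of 0.03 in F4 and 0.13 in F0, so that the place of Psme1 in these counts rests on the probe chosen. Both fractions of a pool were normalized together but sat on separate chips, which this count does not remove. The signs also depend on the scaling. With median scaling over all probes the mean differences of all 5 immune subunits lay above 0 in F4 and in F0, and pools were not counted with that scaling.

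**Figure D4:**
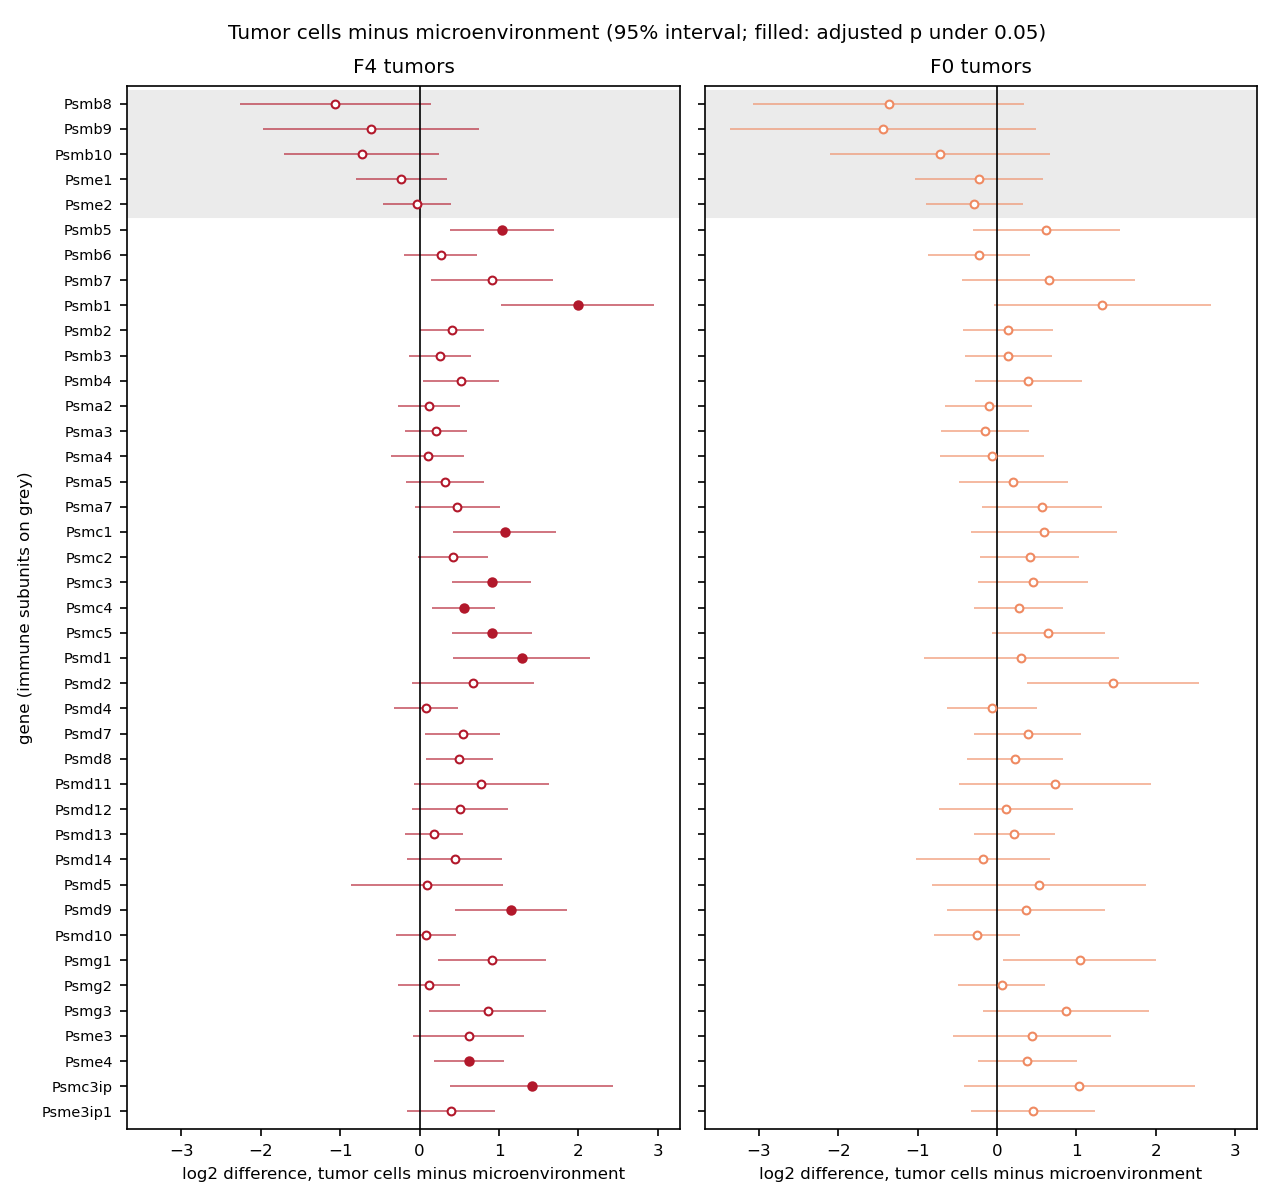
Log2 difference, tumor cells minus microenvironment, of the 41 proteasome genes (rows, immune subunits on grey) in F4 tumors (left) and F0 tumors (right), with 95% intervals from limma and filled points where the adjusted p was under 0.05. In F4 the filled points are the 10 genes that rose, led by Psmb1 at 1.99, and the 5 immune subunits lie below 0 in both panels.

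The number of called members depended on single libraries. It was 0 without F4 tumor pool B, C or D, 1 without F4 microenvironment pool A, B or C, 6 without either F0 tumor array, 15 without F4 tumor pool A and 17 without F4 microenvironment pool D. Calls over all genes dropped as well, to 0.384% higher and 0.64% lower without F4 tumor pool B, while 35 of the 36 others lay above 0 there, with a median of 0.51. Psmb1 was called in 21 of 24 alternatives, Psmc1, Psmc3 and Psmc5 in 18, Psmb5 in 17 and Psmd9 in 16, and Psmc4, Psmd1, Psme4 and Psmc3ip in 12 to 14.

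In F0 tumors, with 2 pools, 0 of 41 members were higher or lower by limma, where 0.266% of all genes were higher and 0.646% lower, and 2 members, Psmd2 and Psmg1, had an unadjusted p under 0.05. That of Psmd2 is set against background, since it was not detected on either F0 microenvironment array. The pattern of signs resembled that of F4: 5 of 5 immune subunits lay below 0, with a median of -0.72, and 29 of 36 others above 0, with a median of 0.39, beside 0.19 for all genes. Psmb8 averaged 6.76 ± 1.82 (SD, n = 2) in F0 tumor cells and 8.12 ± 1.13 (n = 2) in the F0 microenvironment, a difference of -1.36 (95% interval -3.07 to 0.34). Psmb9 differed by -1.43, Psmb10 by -0.72, Psme1 by -0.23 and Psme2 by -0.29, and a second probe of Psme1 gave 0.13. Psmg1, the chaperone PAC1, had 8.47 and 8.85 in tumor cells, against 7.08 and 8.16 in the microenvironment, a difference of 1.04 that did not pass after adjustment (0.177). Without the B3 tumor array the immune differences were 0.22 for Psmb10, 0.30 for Psme1, 0.31 for Psmb9, -0.08 for Psmb8 and -0.12 for Psme2, while without both arrays of pool B3 all 5 lay below 0, from -0.87 for Psmb8 to -0.11 for Psme1. With median scaling over all probes all 5 lay above 0, with a median of 1.20 beside 1.68 for all genes, and with that over the kept probes 2 of 5 did.

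Each inducible subunit was also set against the subunit it replaces within an array, and only the change of that distance between arrays is read, since 2 probes have no common scale. Psmb8 minus Psmb5 was -0.69, -0.79, -1.60 and -1.98 in F4 tumor cells, against -0.58 in pool B2 and -3.63 in pool B3 of F0 tumor cells. In the microenvironment that distance was 1.54, 0.93, 1.17 and -0.30 in F4, against 1.20 and -1.44 in F0. All tumor values lay below those of microenvironment pools A, B, C and B2, and the microenvironment arrays D and B3, which had the high melanocyte signals, were the lowest of the microenvironment, with B3 among the tumor values.

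Averaged over the set, the immune signal minus that of the 34 other subunits, activators and chaperones was 0.08, -0.35, -0.82 and -1.01 in F4 tumor cells, against -0.05 and -2.05 in F0 tumor cells. In the microenvironment it was 0.86, 0.71, 0.93 and -0.13 in F4, against 0.90 and -0.65 in F0. Among the F4 tumor arrays pool A, with the leukocyte signal of 10.21, was the highest, and pool D, with 6.41, the lowest. The F0 tumor arrays did not keep to that order. Pool B3 lay below F4 pool D, though its leukocyte signal was 6.52, and pool B2, with 7.88, lay above F4 pool B, with 7.93. The part of leukocyte RNA in this spread was not tested. Without F4 tumor pool A the difference between fractions in F4 was -1.33 for Psmb8 and -0.96 for Psmb10, which did not pass.

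**Figure D5:**
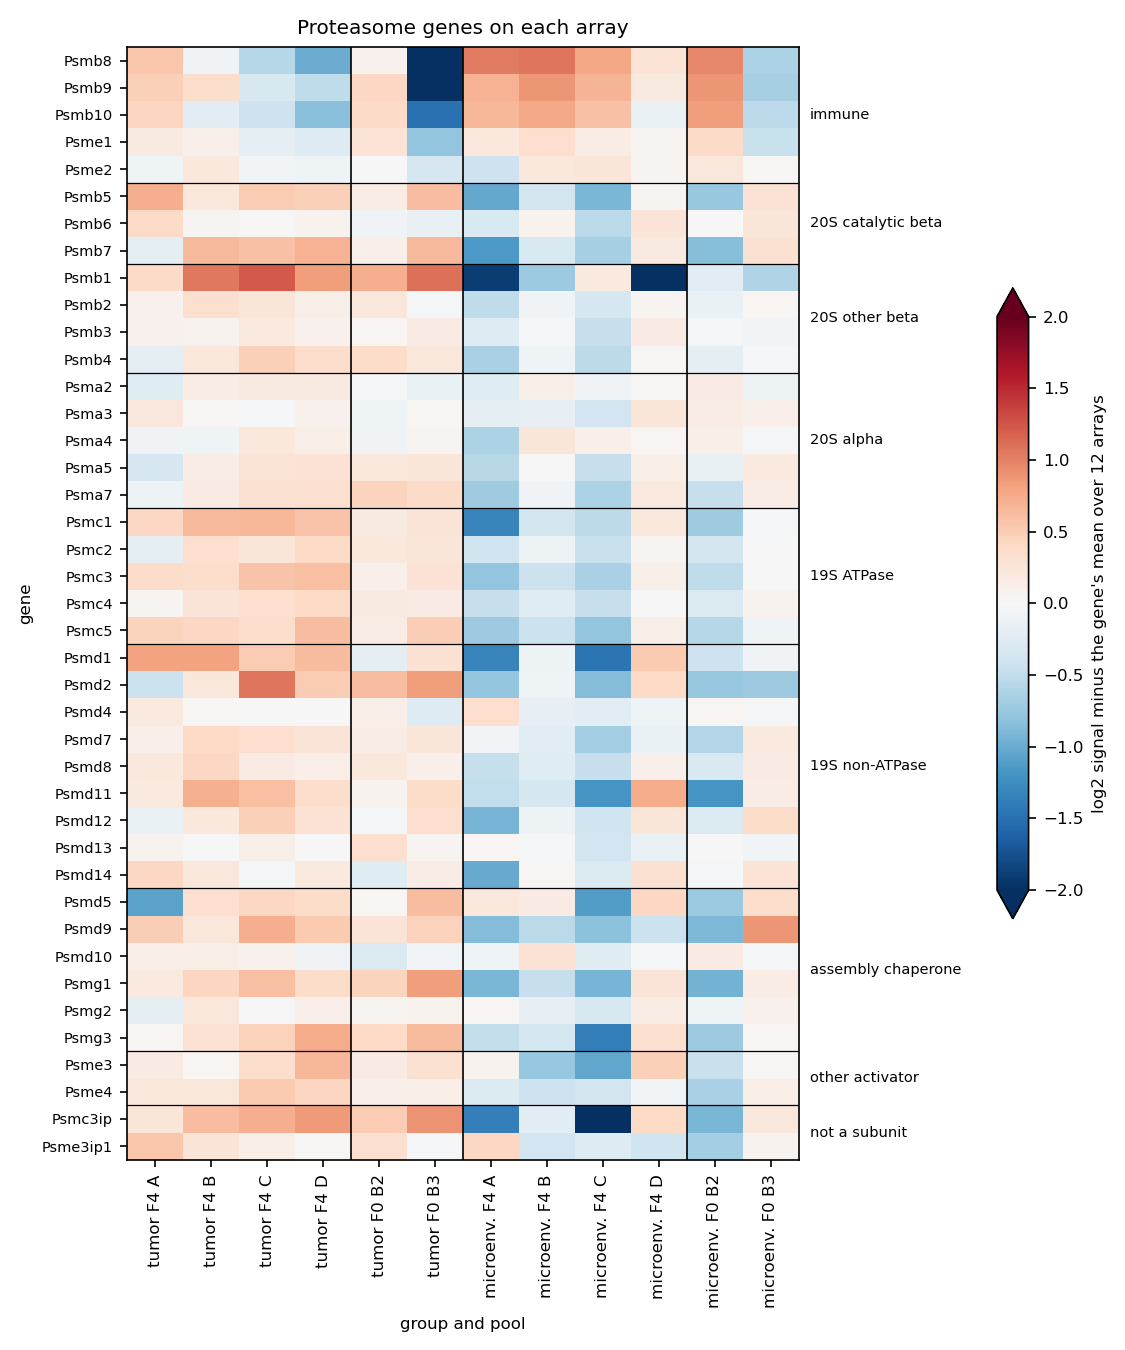
Log2 signal of the 41 proteasome genes (rows, by role) on the 12 arrays (columns, by group and pool), each minus the gene's mean over all arrays, with colours capped at 2 above and below. Psmb8, Psmb9, Psmb10 and Psme1 are lowest on the F0 tumor array B3 and also blue on the F0 microenvironment array B3, and Psme2 is lowest on F4 microenvironment array A, at 8.02, while most other rows are red on tumor arrays and blue on microenvironment arrays A, C and B2.

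The median spread within groups was wider for the immune set than for the others, though their ranges overlapped. The SD within groups had a median of 0.71 for the immune set and 0.30 for the others, beside 0.41 for all genes. Psmb9 had 1.01, at percentile 93.9 of all genes, and Psmb8 had 0.89, whereas Psme1 had 0.37 and Psme2 0.23. This SD pools all groups, and for Psmb8, Psmb9 and Psmb10 most of it came from the distance between F0 pools B3 and B2. For Psmb9 that distance was -3.48 in tumor cells and -1.56 in the microenvironment. Psmb1, Psmd5 and Psmc3ip, at 0.70, 0.69 and 0.75, varied about as much as Psmb10, at 0.71. At the quiet end were Psmd13, at 0.14 and percentile 1.44, and Psmb3, Psma2, Psmd10 and Psmg2 at 0.17 each.

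Genes that work with the proteasome were read from lists. None of them passed the test between F4 and F0 in either fraction, with 0 of 12 proteasome partners, 0 of 6 ubiquitin genes, 0 of 6 transcription factors of proteasome genes, 0 of 12 class I genes and 0 of 23 interferon gamma genes called by limma, and 0 of these genes had an unadjusted p under 0.05 in either fraction. Class I genes were above 0 in 10 of 12 in tumor cells and 12 of 12 in the microenvironment, with medians of 0.32 and 0.47. Interferon gamma genes were above 0 in 19 and 16 of 23, and partners in 5 and 2 of 12. Over all genes 46.8% and 46.1% were above 0. Pomp, the chaperone that completes the core, had a difference of -0.17 in tumor cells and -0.02 in the microenvironment, and Nfe2l1, the factor that restores proteasome genes when the proteasome is inhibited, -0.01 and 0.08.

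Between the fractions of F4 tumors 3 of 12 partners rose in tumor cells, in a comparison where 13.3% of all genes were higher and 11.2% lower. Nploc4, a cofactor of the unfoldase Vcp, was 2.11-fold higher (adjusted p 0.0270), the ubiquitin shuttle Rad23b 3.08-fold (0.0316) and the shuttle Ubqln4 1.94-fold (0.0416). Of 6 ubiquitin genes 2 rose, Ube2n, 1.80-fold (0.0281), and Ube2s (0.0125), which was not above background in the microenvironment, both conjugating enzymes, and 0 of 6 transcription factors passed. In contrast 3 of 12 class I genes fell, the peptide loading factor Tapbp 3.21-fold (0.0180), the peptide transporter subunit Tap2 3.28-fold (0.0347) and H2-K1, a class I heavy chain, 3.998-fold (0.0321). Of 23 interferon gamma genes 5 fell, among them the receptor chains Ifngr1, 8.06-fold, and Ifngr2, 8.67-fold, and the kinase Jak2, 3.42-fold. Leukocyte markers, 7 of 9, and T cell markers, 9 of 9, fell along with them, and their part in these differences was not tested.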

How the data were processed

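RNA (300 ng per sample) was amplified and hybridised to Illumina mouse bead arrays, per the labels' protocols. The authors deposited a table of average bead intensity per probe, not normalized, with a detection p-value per probe, per the file headers. GenomeStudio is named in the submitters' processing notes, and its version is not given in the sources used here. A further table deposited by the authors holds processed intensities of 12824 probes, with column medians of 94.5 to 104 and normalization unknown, and served as an alternative.

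From the intensities, neqc of limma 3.58.1 (R 4.3.3) corrected background from the detection p-values (normexp, offset 16), quantile-normalized the arrays and took log2 values. A probe was kept with a detection p under 0.01 on at least 2 arrays, and the brightest kept probe by mean stood for a gene, which gave 7894 genes. Of the probes 12096 carry 1 gene symbol, none several, and 13601 are unnamed here. One model over the 4 groups was fitted with lmFit and eBayes, and every adjusted p comes from limma with the Benjamini-Hochberg adjustment over all 7894 genes at 0.05, and intervals are at 95%. A signal that was not above background on any array of a group has only a bound, so no fold is given. The number of arrays limits the precision. No 2 arrays held identical values.

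The 5 immune subunits and Psmb5, Psmb6 and Psmb7 were always named, with, in each contrast, the called members of largest difference or the 5 members of smallest p, and the 3 genes of smallest p in each other list. Further members are given to account for their role. The members and lists were chosen with earlier results of these data known. Both fractions of a pool come from the same tumors by design, and the correlation of their deviations from the group means was 0.113, 0.107, -0.0720 and 0.562 for F4 pools A to D and 0.393 for F0. Alternatives were the scaling, background correction, detection filter, probe choice, array weights, pool as a block, groups fitted alone, each array left out, and 3 arrays with markers of the other fraction left out. The tests were tried on simulated data with independent arrays. Those data held no shared pool and no outlying array, so the trial says nothing of how the tests behave with them. Promoters are from RefSeq on GRCm38.p6.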

Additional observations from a re-analysis of the deposited data

Results flagged for a closer look

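In groups of 4 arrays, 9 of 82 tests, 1 per proteasome gene and group, flagged a value that stood apart from its group. The gap of such a value to the nearest array, as a share of the group's range, was above the 95% limit of Dixon's test for 4 values. Chance flags about 1 in 20 groups. Of the flagged values, 5 were on F4 tumor pool A, the array with the high leukocyte signal. Psmd5, a base assembly chaperone, had 5.66 there against 7.06 to 7.14 on the other arrays of its group (share 0.946). Psmb7 had 10.23, where the highest of its group had 11.12 (0.871), and Psma2 had 12.23 against 12.61 to 12.65 (0.899). Psmb6, at 11.09 against 10.72 to 10.78 (0.850), and Psmd4, at 12.53 against 12.33 to 12.35 (0.886), were high on it. Psme2 was high on F4 tumor pool B, at 8.63 against 8.34 to 8.37 (0.895), and Psmb3 on F4 tumor pool C, at 11.74 against 11.61 to 11.64 (0.833). In the F4 microenvironment Psmd5 was low on pool C, at 5.61 against 6.89 to 7.13 (0.841), and Psme3ip1 was high on pool A, at 9.23 against 8.42 to 8.55 (0.844).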

How the results depend on the processing

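No proteasome gene was called between F4 and F0 in either fraction, or in the interaction, under any alternative run. Between the fractions of F4 tumors the 10 genes that rose became 37 with median scaling over all probes (67.8% of all genes higher), 25 with array weights (46.5%), 24 without the 3 arrays that carry markers of the other fraction (35.4%), 6 in the authors' processed values (9.72%), 11 with the pool as a block (replicate block, 18.8%), and 0 to 17 with 1 array left out. The 0 that fell became 2 with array weights, 2 with the replicate block and 1 without the 3 arrays, and the block changed no other call of a member between F4 and F0 or in F0. In F0 tumors the 0 that rose became 37 with median scaling (68.2% of all genes), 8 without the 3 arrays (19.6%) and 0 to 1 with 1 array left out. Median scaling over all probes turned Psme1 to 1.17 and Psme2 to 1.38 in F4, and Psme1 to 1.66, Psme2 to 1.66 and Psmb6 to 1.73 in F0, beside shifts of all genes of 1.22 and 1.68. The immune median minus that of the others ran, with 1 array left out, from -0.46 to 1.24 between F4 and F0 tumor cells, -0.256 to 1.40 in the microenvironment, -1.14 to 0.743 in the interaction and -2.07 to -0.129 between the fractions of F0. Of 1451 values of named genes 1254 kept a call, or stayed uncalled and moved by less than the standard error of the difference. A further 95 stayed uncalled and moved by more, 80 lost a call, 17 gained one and 5 reversed. Among the values called in neither setting 100 changed sign. Leaving out pool F0 B3 and median scaling over the kept probes were chosen after seeing the data. With 2 F0 pools and a median half-width near 0.66 before adjustment, smaller differences were not detectable for a gene with that half-width. A call after adjustment needed a larger one, and Psmd2 and Psmd9 lay near background. Unless stated, the cause of a change was not tested.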

Other observations

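The inducible subunit minus its constitutive counterpart was lowest on the F0 pool B3 array of each fraction for the other catalytic pairs too, with a smaller distance to the F4 arrays for Psmb10 and Psmb7. Psmb9 minus Psmb6 was -0.96, -0.76, -1.40 and -1.63 in F4 tumor cells, against -0.56 in pool B2 and -3.97 in pool B3 of F0 tumor cells. In the microenvironment it was -0.04, -0.24, 0.17 and -1.14 in F4, against -0.16 and -1.97 in F0. Psmb10 minus Psmb7 was 1.16, -0.34, -0.47 and -1.004 in F4 tumor cells, against 0.80 in pool B2 and -1.62 in pool B3 of F0 tumor cells, and 2.33, 1.59, 1.78 and 0.21 in the F4 microenvironment, against 2.21 and -0.30 in the F0 microenvironment.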
